A study of Zea mays with 4 samples.

Results

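The PIP1 aquaporins of maize were followed in young stacked internodes on the Affymetrix maize array. Members were chosen by name: a probe set was taken where the array's annotation, or the RefSeq symbol or synonyms of its gene identifier, read PIP1 with a hyphen and a number, or pip1 with a letter. This gave 8 of the array's 17734 probe sets, which belong to 4 of 1108 named gene identifiers: PIP1-1 (1 probe set), PIP1-2 (1), PIP1-3/PIP1-4 (5) and PIP1-5 (1). RefSeq lists the names PIP1-3 and PIP1-4 under a single identifier, so these array data cannot tell the 2 names apart.

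The study compared 2 CCR mutant samples with 2 WS samples, with 1 array for each sample. In the CCR mutant, cinnamoyl-CoA reductase (CCR), an enzyme on the route to lignin precursors, is downregulated. The labels name no allele and no genetic background and do not spell out WS. All plants were sampled with 6 to 7 leaves, after growth at 25 °C in the day and 22 °C in the night under 16 h of light. Each CCR mutant sample was 1 extract of its own (144 and 182 µg RNA), and its label names no treatment. Each WS sample joined its own extract (185 and 215 µg RNA) to 3 other extracts of 1 µg each, and its label mentions a 36 h drought with REW (as abbreviated there) at 20 to 30%. Genotype, pooling and this treatment entry go together and cannot be told apart. The labels do not state that a group's samples are separate plants, so every p-value below reflects sample-to-sample spread that could be technical.

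Aquaporins are channel proteins of membranes through which water, and in some classes small solutes, cross by way of a pore. They work as tetramers. In plants the PIP proteins sit mainly in the plasma membrane and fall into the classes PIP1 and PIP2. In maize, PIP1 proteins made alone in a cell largely stay in the endoplasmic reticulum, and they reach the plasma membrane when joined with PIP2 proteins. The transcripts of both classes are therefore read side by side.

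For each of the 4 PIP1 genes, the difference between the CCR mutant and WS was smaller than the spread between arrays of a group. Of the 8 probe sets, 7 reached a log2 value of 4 on at least 2 arrays and were tested. With limma, 0 of 7 had a Benjamini-Hochberg adjusted p under 0.05, where 17 of 11085 passed in the whole table (0.153%). At an unadjusted p under 0.05 there were also 0 of 7, against 6.43% of all tested probe sets. The CCR mutant minus WS difference was negative in 6 of the 7 and positive in 1, with a range of -0.12 to 0.045 and a median of -0.03 on the log2 scale. The same median over all tested probe sets was -0.045, and 61.9% of them were below 0. As 4 of the 7 values come from 1 gene identifier, the count of negative values is not read further. In the plot of differences for all tested probe sets, the PIP1 marks fall in its central mass: 43.8% of tested probe sets differed by more than the most different PIP1 probe set.

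**Figure D1:**
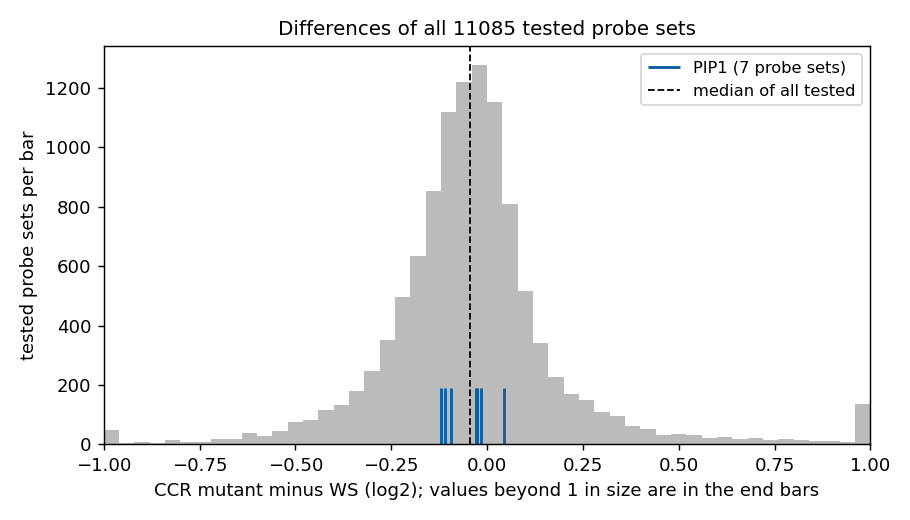
Histogram of the CCR mutant minus WS difference (log2, horizontal axis) over all 11085 tested probe sets, with their number per bar on the vertical axis. Blue marks show the 7 tested PIP1 probe sets, which lie between -0.12 and 0.045, and the dashed line is the median of all tested probe sets at -0.045.

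PIP1-1 and PIP1-2 gave the most even signals of the family. PIP1-1 encodes a plasma membrane aquaporin of the PIP1 class. Its log2 values were 12.82 and 12.78 in the CCR mutant, against 12.81 and 12.84 in WS. All 4 arrays lay within 0.06 of each other and the groups overlapped. The difference was -0.025 (SE 0.07, n = 2 arrays per group, limma adjusted p = 0.957). On the linear scale the CCR mutant stood at 98.3% of WS, with a 95% confidence interval of 85.1% to 114%.

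PIP1-2 is the maize PIP1 protein best known as a partner of PIP2 proteins in tests of trafficking and water permeability. It was measured at 12.58 and 12.73 in the CCR mutant and at 12.72 and 12.65 in WS. CCR mutant replicate 1 was the lowest array and CCR mutant replicate 2 the highest, so both WS arrays lay inside the range of the mutant. The difference was -0.03 (SE 0.09, n = 2 arrays per group, limma adjusted p = 0.96), or 97.9% of WS with an interval of 81.4% to 118%. These probe sets were bright: the highest value of any probe set was 14.11, and whether differences are compressed near the top of the scale was not tested.

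PIP1-3/PIP1-4 was read by 5 probe sets, of which 4 were well above background. These 4 are listed under a single gene identifier and are not read as independent measurements. Probe set names that end in _a_at mark probes shared by transcripts of a gene, and names that end in _x_at mark sets in which some probes may also bind related sequences. The gene has 2 bright sets of each kind, called the first and the second here.

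The first _a_at set read 9.78 and 9.51 in the CCR mutant, against 9.94 and 9.54 in WS. The second _a_at set read 9.71 and 9.36 in the CCR mutant, against 9.82 and 9.47 in WS. On both probe sets replicate 1 was the higher array in each group, and the groups overlapped. The first _x_at set gave 9.13 and 9.0 in the CCR mutant, against 9.35 and 9.02 in WS. The second _x_at set gave 10.65 and 10.38 in the CCR mutant, against 10.68 and 10.38 in WS. Thus all 4 probe sets ordered the arrays alike, with WS replicate 1 highest, CCR mutant replicate 1 next, and the replicate 2 arrays below, nearly level on most of the sets.

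The CCR mutant minus WS differences of these 4 probe sets were small and negative. They were -0.095 (SE 0.19) and -0.11 (SE 0.20) for the sets ending in _a_at, and -0.12 (SE 0.15) and -0.015 (SE 0.16) for those ending in _x_at, with 2 arrays per group. Their limma adjusted p-values were between 0.883 and 0.99. Averaged over the 4 probe sets, the gene stood at 9.82 and 9.56 in the CCR mutant and at 9.95 and 9.60 in WS, a difference of -0.085. Without WS replicate 1 the sign turned in all 4 probe sets, to between 0.045 and 0.135, and without CCR mutant replicate 2 in 3 of them, so no direction can be read for this gene.

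The remaining probe set of PIP1-3/PIP1-4 read 2.10 and 2.11 in the CCR mutant, against 2.08 and 2.08 in WS. The array also carries 66 probe sets against foreign reporter genes, whose median value was 2.07, with 65 of them never above 3.43. The dim set gives no reading of the gene and was not tested. Its groups did not overlap, by a margin of about 0.02. All 66 reporter probe sets were likewise higher in the CCR mutant, by a median of 0.035.

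PIP1-5 is known in maize as a member expressed strongly in roots, with a day and night rhythm. It read 8.80 and 8.58 in the CCR mutant, against 8.80 and 8.49 in WS. Replicate 1 was again the higher array in each group, and the 2 replicate 1 arrays were equal. The difference was 0.045 (SE 0.16, n = 2 arrays per group, limma adjusted p = 0.964), the single positive value of the family, or 103% of WS with a 95% confidence interval of 75.6% to 141%. Its sign turned to -0.11 without WS replicate 2 and to -0.065 without CCR mutant replicate 1.

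**Figure D2:**
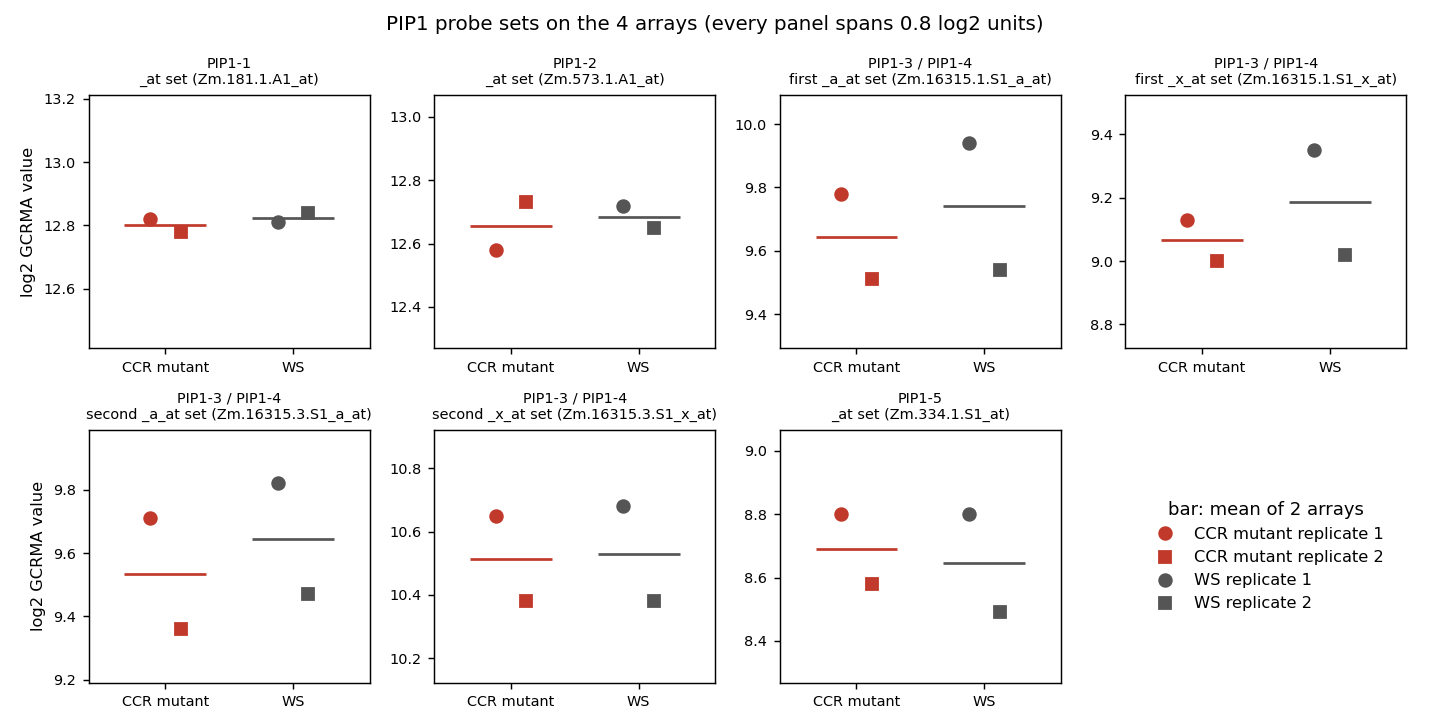
Log2 GCRMA values (vertical axis) of the 7 tested PIP1 probe sets, CCR mutant in red on the left and WS in grey on the right of each panel. Circles are replicate 1 and squares replicate 2, the bar is the mean of 2 arrays, and every panel spans 0.8 log2 units. The groups overlap in all 7 panels, and in the panels of PIP1-3/PIP1-4 and PIP1-5 the circles stand above the squares in both groups.

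The gap between the arrays of a group thus exceeded the difference between groups throughout the family. In 7 of 7 tested probe sets the CCR mutant minus WS difference was smaller than the gap between the 2 arrays of either group. This held for 34.9% of all tested probe sets. Of the 7, 4 are of PIP1-3/PIP1-4, and for PIP1-1 the margin was narrow (a difference of -0.025 against a WS gap of -0.03). It was also narrow for the first _x_at set of PIP1-3/PIP1-4 (a difference of -0.12 against a CCR mutant gap of 0.13). With 2 arrays per group, a difference below both gaps means that the groups overlap, so the overlap in all 7 adds nothing further. Over all tested probe sets the groups did not overlap in 36.5%. The gap of replicate 1 minus replicate 2 was 0.04 in the CCR mutant and -0.03 in WS for PIP1-1, and -0.15 in the CCR mutant and 0.07 in WS for PIP1-2. For the 4 PIP1-3/PIP1-4 probe sets the gaps were 0.13 to 0.35 in the CCR mutant and 0.30 to 0.40 in WS, and for PIP1-5 they were 0.22 in the CCR mutant and 0.31 in WS. So PIP1-3/PIP1-4 and PIP1-5 were higher in the replicate 1 array of both groups, while PIP1-1 and PIP1-2 were not. The share of all tested probe sets with this order was not counted, so it is not read as a trait of PIP1. Deviations of same-numbered arrays from their group mean correlated at 0.348 over all tested probe sets. Over all tested probe sets the median size of this gap was 0.12 between the CCR mutant arrays and 0.14 between the WS arrays. The labels do not say that a replicate number marks a shared day or batch, and what the replicate 1 samples have in common was not tested.

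The intervals show how large a change of signal these arrays could have missed, given the spread between samples. Like the p-values, they rest on a spread that could be technical. Possible compression of bright signals and binding of related sequences lie outside what they cover. All 7 intervals lay between -0.67 and 0.49 on the log2 scale, which is 62.9% to 141% of WS, so a doubling or a halving of signal falls outside each of them. Intervals within -1 to 1 were found for 88.7% of all tested probe sets. The narrower range of -0.5 to 0.5, chosen after the values were seen, held the intervals of 4 of the 7 (PIP1-1, PIP1-2, PIP1-5 and the second _x_at set of PIP1-3/PIP1-4), against 58.4% of all tested probe sets. The interval of PIP1-1 is the tightest of the family and that of the second _a_at set of PIP1-3/PIP1-4 the widest. Since whole internodes were used, fewer cells with a transcript and less transcript per cell cannot be told apart.

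The PIP2 partners were more scattered. Of 8 PIP2 probe sets (6 genes) 6 were tested and 0 passed, against 0.153% of all tested probe sets. Of the 6, 3 were higher and 3 lower in the CCR mutant, at a median difference of 0.045 and a range of -0.66 to 0.55. The median turned to -0.03 without CCR mutant replicate 1 and was 0.1775 without WS replicate 1. At the upper end stood PIP2-2, at 9.20 and 9.14 in the CCR mutant and 9.04 and 8.20 in WS, a difference of 0.55 (SE 0.32). At the lower end stood PIP2-5, at 6.48 and 6.47 in the CCR mutant and 6.29 and 7.97 in WS, a difference of -0.66 (SE 0.62). In both cases WS replicate 2 was the array apart from the other 3, low for PIP2-2 and high for PIP2-5. No PIP1 probe set placed WS replicate 2 apart from the other 3 arrays in this way. The residual SD, the spread of arrays around their group mean, had a median of 0.19 in PIP1 (0.025 to 0.247), 0.26 in PIP2 (0.12 to 0.84) and 0.12 over all tested probe sets. Whether the classes differ in spread was not tested.

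The other aquaporin classes hold channels of the vacuole membrane (TIP), channels for uncharged solutes such as silicic acid (NIP) and small proteins thought to work in inner membranes (SIP). Of 10 TIP probe sets 4 were tested, with a median difference of -0.035 and a range from -0.175 (TIP1-1) to 0.32 (TIP4-1). Of 7 NIP probe sets 6 were tested, with a median of -0.38 and a range from -0.51 (NIP2-2) to 0.13 (NIP1-1). The NIP median rests on WS replicate 1, on which NIP2-1, NIP2-2, NIP2-3 and NIP3-1 were all highest: it was 0.0875 without that array and -0.84 without WS replicate 2. The TIP median turned to 0.085 without WS replicate 2 and was -0.13 without WS replicate 1. All 3 SIP probe sets were tested, and SIP1-2 had the largest difference of any aquaporin at 1.73 (SE 0.25, limma adjusted p = 0.422), while SIP2-1 had -0.05. The SIP median of 0.115 turned to -0.04 without WS replicate 2 and was 0.27 without WS replicate 1. Of these 13 probe sets 0 passed with limma, against 0.153% of all tested probe sets. At an unadjusted p under 0.05 there was 1 (SIP1-2), against 6.43%. The median size of the difference was 0.045 in PIP1, 0.29 in PIP2, 0.11 in TIP, 0.38 in NIP and 0.115 in SIP. These are descriptions, and the difference between classes was not tested.

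**Figure D3:**
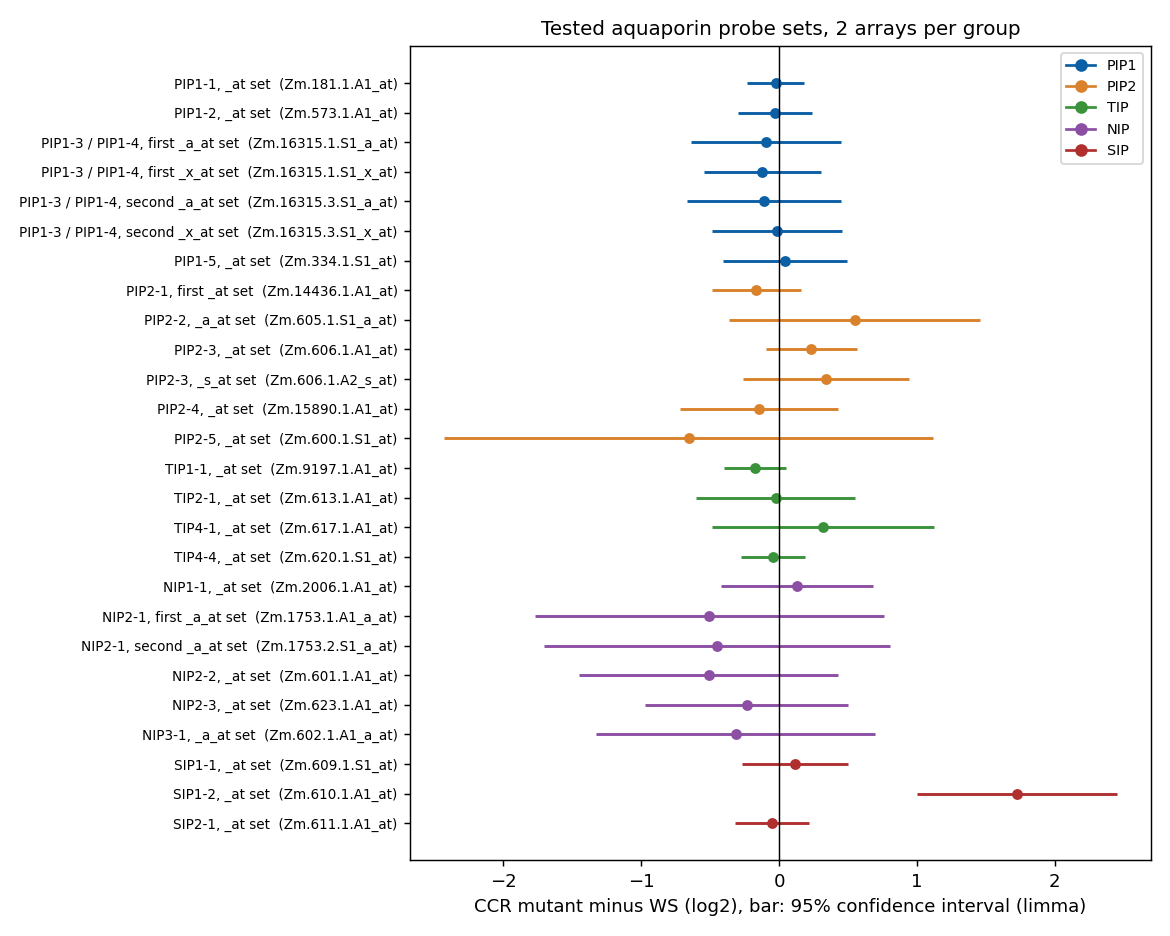
CCR mutant minus WS difference (log2, horizontal axis) of each tested aquaporin probe set (rows, coloured by class), as a point with its 95% confidence interval from limma, 2 arrays per group. The 7 PIP1 points at the top lie between -0.12 and 0.045 with intervals that include 0, and SIP1-2 is the single row whose interval lies above 0.

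**Figure D4:**
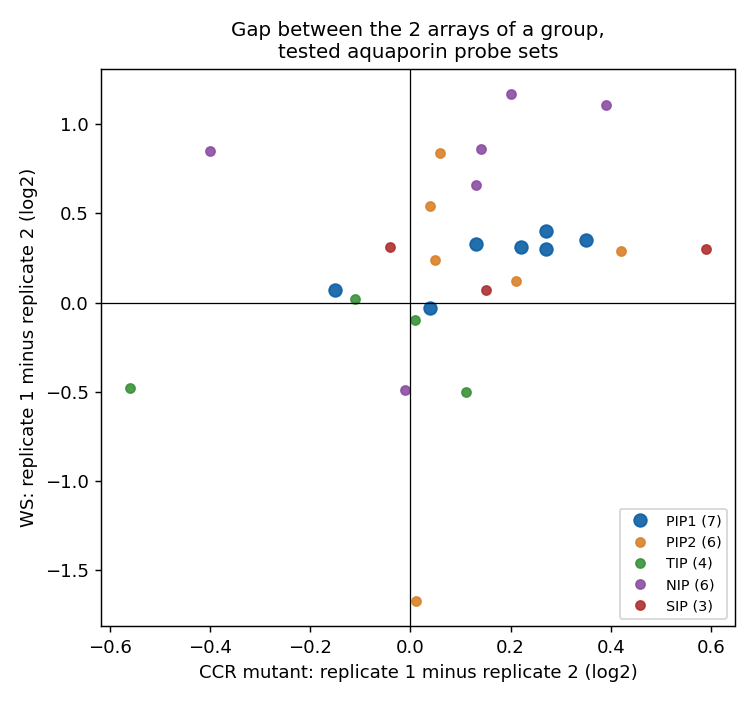
Gap of replicate 1 minus replicate 2 (log2) in the CCR mutant (horizontal axis) and in WS (vertical axis) for each tested aquaporin probe set, coloured by class. The PIP1-3/PIP1-4 and PIP1-5 points sit together at 0.13 to 0.35 across and 0.30 to 0.40 up, PIP1-1 and PIP1-2 lie within 0.15 of 0 on both axes, and PIP2-5 lies lowest at -1.67.

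Because the WS labels carry a drought text, transcripts known to respond to drought and abscisic acid were read beside the family. Of the 15 names on this list 8 genes were matched, with 15 probe sets. Of these, 7 were tested and the rest were too dim. With limma 0 of the 7 passed, against 0.153% of all tested probe sets. At an unadjusted p under 0.05 there were also 0, against 6.43%. The median difference was 0.075, with 5 higher and 2 lower in the CCR mutant, and the smallest p belonged to a dehydrin, dehydrin3, at 0.12 (SE 0.09). Proton pumps, which power solute transport across the membranes in which aquaporins sit, had 3 tested probe sets with a median of 0.12, and 0 passed. The plasma membrane pump gene mha1 read 7.78 and 8.21 in the CCR mutant and 7.68 and 7.24 in WS, a difference of 0.54 (SE 0.24, limma adjusted p = 0.79).

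Across the whole array, medians of all probe sets were between 6.55 and 6.60, and 11038 to 11056 probe sets reached a log2 value of 4. The labels do not say which CCR gene is affected, and the array names 2. The gene cncr1 read 8.59 and 9.14 in the CCR mutant and 10.99 and 10.13 in WS, a difference of -1.70 (SE 0.38, limma adjusted p = 0.68). The gene cncr2 read 5.59 and 5.13 in the CCR mutant and 5.93 and 5.0 in WS, a difference of -0.105 (SE 0.39, limma adjusted p = 0.965). Neither passed. As to tissue, the stem and meristem homeobox gene KN-1 read 8.49 and 8.35 in the CCR mutant and 9.04 and 8.38 in WS. Of the tested marker probe sets, 12 of dividing cells, 12 of photosynthetic leaf, 6 of secondary wall and xylem, 7 of epidermis and cuticle and 2 homeobox sets, 0 passed. The passing share over all tested probe sets was 0.153%, so this count does not show that the groups are alike in cell types. All 12 of dividing cells, from 9 matched genes, had a lower mean in the CCR mutant (median difference -0.29). Of all tested probe sets, 61.9% were lower in the CCR mutant. Some of the 12 sets share a gene, and their count is not read further. Their summed level was 12.30 and 12.13 in the CCR mutant and 12.29 and 12.57 in WS (log2). That of the 6 xylem sets was 12.94 and 13.20 in the CCR mutant and 13.39 and 12.97 in WS. Neither of these sums has the order of arrays seen in PIP1-3/PIP1-4. The leaf sets lack it too, with sums of 15.43 and 15.52 in the CCR mutant and 15.55 and 15.23 in WS. So do the epidermis sets, at 13.51 and 13.72 in the CCR mutant and 13.22 and 13.55 in WS. The sum of the 2 homeobox sets has it, at 8.64 and 8.54 in the CCR mutant and 9.24 and 8.54 in WS. KN-1 makes up most of that sum, and no marker of the pair was at background. The median of the 2 sets lacks the order, at 6.89 and 6.95 in the CCR mutant and 7.66 and 6.85 in WS. The part of any of these cell types in the PIP1 values was not tested.

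The PIP1 probe set with the widest range over the arrays, the second _a_at set of PIP1-3/PIP1-4 at 0.46, was set against named genes of other families by the shape of their values. Likeness was Pearson's r over the 4 arrays among 558 probe sets with 1 named gene and a range of at least 0.23. The nearest were hsfb (0.996), a gene labelled Snf-4 like (0.991) and bsd2 (0.986). hsfb read 6.10 and 5.74 in the CCR mutant and 6.26 and 5.88 in WS, and bsd2 read 9.21 and 8.89 in the CCR mutant and 9.28 and 8.92 in WS. With 4 arrays such values are easily reached: 30 of the 558 had an r above 0.9.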

How the data were processed

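RNA of 4 internode samples (2 CCR mutant, 2 WS) was hybridised to 1 Affymetrix maize array each. The deposited log2 values were made by the authors with GCRMA, per the submitters' processing notes, which give no version. The method subtracts a background that depends on each probe's bases, brings the arrays to a common distribution and summarises the probes of a set into 1 value. No header names the base of the logarithm, and log2 is taken from the range of values. Tested PIP1 values carry 2 decimals, and no arrays were identical.

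Values were not normalized again. After 179 control probe sets were left out (66 of them for reporter genes), a probe set was tested if it reached 4 on at least 2 arrays, which left 11085 of 17555. limma 3.58.1 in R 4.3.3 (lmFit and eBayes) was fitted to all of them, two-sided, with Benjamini-Hochberg adjustment, 2 residual and 1.70 prior degrees of freedom, and was tested on simulated data. Intervals are at 95%. The number of arrays limits the precision.

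Names were taken from the array annotation dated 2007 (1452 probe sets with 1 gene, 1 with several, 16281 with none) and RefSeq (assembly Zm-B73-REFERENCE-NAM-5.0), which held 1060 of 1108 gene identifiers. No build is given for the array, so no coordinates or sequences are printed. Members and gene lists were chosen with earlier results of these data known. All PIP1 probe sets are named; of other aquaporin classes, the highest and lowest difference; of lists of which a gene is named, the member with the smallest p; and the 3 genes most like the widest-ranging PIP1 probe set. The alternatives were other filters, variance models and array scalings, a replicate block, values below 4 set to 4, leaving out each array in turn, dropping probe sets ending in _s_at or _x_at, and averaging the probe sets of a gene.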

Additional observations from a re-analysis of the deposited data

How the results depend on the processing

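No PIP1 probe set passed in the main limma test or in any alternative that kept all 4 arrays. The lowest adjusted p of these was 0.613, with no filter on low values. A fit with 1 array left out has 1 array in a group, so its PIP1 calls are not counted here. Over 84 refits, from 12 alternatives for each tested probe set, the sign of the difference turned in 15. The other filters, the variance models, the replicate block and setting values below 4 to 4 left every PIP1 difference unchanged, so they could turn no sign. All 15 turns came from the array scalings and from leaving out 1 array. With arrays centred on their medians the difference became 0.015 for PIP1-1, 0.01 for PIP1-2 and 0.025 for the second _x_at set of PIP1-3/PIP1-4, and with repeated quantile normalization it became 0.0029 for the last. Centring moved the median of all tested probe sets by 0.04. With 1 array left out, the differences ran from -0.295 to 0.105 (first _a_at set of PIP1-3/PIP1-4), -0.285 to 0.045 (its first _x_at set), -0.285 to 0.065 (its second _a_at set), -0.165 to 0.135 (its second _x_at set), -0.045 to -0.005 (PIP1-1), -0.11 to 0.20 (PIP1-5) and -0.105 to 0.045 (PIP1-2). The family's median ran from -0.165 to 0.065 and was -0.03 without probe sets ending in _s_at or _x_at; the medians of the other classes, which also turned sign, ran from -0.03 to 0.1775 (PIP2), -0.13 to 0.085 (TIP), -0.84 to 0.0875 (NIP) and -0.04 to 0.27 (SIP). The count of passing probe sets was 9 with no filter, 0 with each array left out (0 to 0) and 0 with the replicate block, against 17; the causes were not tested. In this balanced design a replicate block cannot move a difference, and as no probe set of the whole table passed with it, it says nothing on the PIP1 calls. It changed the SE, which was 0.080 with the block against 0.195 without it for the second _a_at set of PIP1-3/PIP1-4 and 0.084 against 0.156 for PIP1-5. Deviations of same-numbered arrays correlated at 0.348 across tested probe sets, with 2 pairs, and the labels do not pair them.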

Other observations

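Probe sets near background were shifted slightly and evenly between the groups. Of 6282 probe sets below 4 on all arrays, 91.3% had a higher mean in the CCR mutant, with a median difference of 0.03. Over the tested probe sets the median difference had the other sign, at -0.045. Of the 9 aquaporin probe sets below 4 on all arrays, 8 were higher and 1 was lower in the CCR mutant. The PIP1-3/PIP1-4 probe set at background, with a difference of 0.025, is among the 8. The exception was TIP3-1, at 2.65 and 2.42 in the CCR mutant and 2.88 and 3.51 in WS. Groups did not overlap in 88.0% of the 6282 dim probe sets, against 36.5% of the tested ones, so the gap seen on the dim PIP1-3/PIP1-4 probe set is common at that level.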
